A study of Mus musculus with 9 samples.

Results

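The immediate early genes described here are 10 genes chosen by symbol: the zinc finger factor genes Egr1, Egr2 and Egr3, the AP-1 subunit genes Fos, Fosb, Jun and Junb, the early response genes Ier2 and Ier3, and Srf, the gene of serum response factor. All 10 were found among the 22322 genes listed in the deposited tables, and 8 passed the filter on low counts and entered the fit of 13158 genes. Egr2 and Egr3 did not pass it. The choice was made with the values of these same libraries known. The levels and fold changes of the 10 genes are therefore given as a description, with standard errors (SE) and no p-values.

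The libraries are RNA-seq of mouse R1 embryonic stem cells, a line derived from the early mouse embryo. The sh-Pfkp cells carried a hairpin against Pfkp, the gene of platelet-type phosphofructokinase, a glycolytic enzyme that commits glucose to breakdown. The sh-Lin41 cells carried a hairpin against Lin41, the RNA-binding TRIM-NHL protein encoded by Trim71. The sh-ctrl cells carried a control hairpin. Each group had 3 libraries, and every group had spent 6 days in suspension without LIF, the cytokine that holds mouse stem cells undifferentiated, to form embryoid bodies. The labels name 1 hairpin per gene and no rescue, so what a hairpin or its cell line does by itself and what the loss of the targeted gene does cannot be told apart. No serum or growth factor step is named, so each value is a level at a single time and not a response to a stimulus.

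Immediate early genes are transcribed within minutes of a growth factor, serum or stress signal, from factors already present in the cell and without new protein synthesis. In the best known route, a receptor such as an FGF receptor activates ERK, and ERK phosphorylates ternary complex factors (Elk1, Elk3 and Elk4) that sit with SRF on CArG boxes next to ETS sites in front of genes such as Egr1, Egr2 and Fos. The products, EGR and AP-1 factors, then set the next round of transcription, and most of these mRNAs carry AU-rich elements and are short-lived. In mouse stem cells FGF4 acting through ERK helps cells leave the naive pluripotent state, and in human pluripotent cells LIN41 has been described as a translational repressor of EGR1 mRNA. RNA-seq does not measure that step.

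Total counts lay between 15495194 and 20607683 per library. Pfkp was at 102.9 ± 1.89 CPM (read counts scaled to library size with TMM factors) in sh-Pfkp and 247.1 ± 1.83 CPM in sh-ctrl libraries, and Trim71 at 159.6 ± 4.89 CPM in sh-Lin41 and 268.8 ± 4.72 CPM in sh-ctrl libraries (SD, n = 3 each). Trim71 was also higher in sh-Pfkp than in sh-ctrl libraries, by 0.39 on the log2 scale (SE 0.0238, adjusted p = 4.06e-15 by edgeR's quasi-likelihood test). Of 8 pluripotency markers, all lay above 10 CPM in every group, and their summed level was 4287 to 4375 CPM in sh-Pfkp, 5631 to 5660 CPM in sh-Lin41 and 4732 to 4809 CPM in sh-ctrl libraries. Of 8 streak and endoderm markers, 5 in sh-Pfkp, 6 in sh-Lin41 and 5 in sh-ctrl libraries lay under 1 CPM on average, among them T and Mixl1. The highest of the list, Eomes, was at 10.4 CPM in sh-Pfkp, 9.17 CPM in sh-Lin41 and 14.6 CPM in sh-ctrl libraries, and Gata4 at 2.07 CPM in sh-Pfkp, 3.4 CPM in sh-Lin41 and 2.97 CPM in sh-ctrl libraries. Of 8 neural progenitor markers the summed level was 129 to 135 CPM in sh-Pfkp, 96.3 to 102.5 CPM in sh-Lin41 and 101 to 103 CPM in sh-ctrl libraries. Its largest part was Tubb3, at 80.3, 53.5 and 66.8 CPM in these groups, and single markers differed from the sum. Sox1 was at 13.55, 17.23 and 8.02 CPM and Pax6 at 15.57, 7.28 and 7.33 CPM, in the same order of groups. The median pluripotency marker was at 553 CPM in sh-Pfkp, 715 CPM in sh-Lin41 and 559 CPM in sh-ctrl libraries. The median streak and endoderm marker was at 0.445, 0.338 and 0.384 CPM. Pluripotency transcripts were thus abundant in all groups, although the labels give 6 days of embryoid body formation. The samples are bulk RNA, in which fewer cells with a transcript and less of it per cell cannot be told apart.

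Promoter sequences are given for 3 of the genes, searched for elements through which this gene class is known to be driven, which not all of them hold. They are the 250 bases before the start site in RefSeq's table for GRCm38.p6, written 5′ to 3′ on the strand of the gene, with matches to the motifs searched in capitals. Fos and Ier3 are shown because, of the members with a window in that table, they had the lowest levels against sh-ctrl. Srf is shown because its own promoter holds the element that its protein binds.
Fos, chr12:85473640-85473889, plus strand: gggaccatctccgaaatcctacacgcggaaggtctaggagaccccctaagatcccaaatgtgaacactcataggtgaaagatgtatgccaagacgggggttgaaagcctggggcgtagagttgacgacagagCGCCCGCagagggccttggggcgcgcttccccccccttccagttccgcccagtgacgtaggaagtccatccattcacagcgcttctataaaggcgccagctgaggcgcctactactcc
Ier3, chr17:35821463-35821712, plus strand: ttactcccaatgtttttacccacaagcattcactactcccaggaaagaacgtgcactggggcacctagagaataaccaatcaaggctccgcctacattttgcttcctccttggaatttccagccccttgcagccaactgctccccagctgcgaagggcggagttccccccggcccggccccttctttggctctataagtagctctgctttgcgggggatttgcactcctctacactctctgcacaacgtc
Srf, chr17:46556163-46556412, minus strand: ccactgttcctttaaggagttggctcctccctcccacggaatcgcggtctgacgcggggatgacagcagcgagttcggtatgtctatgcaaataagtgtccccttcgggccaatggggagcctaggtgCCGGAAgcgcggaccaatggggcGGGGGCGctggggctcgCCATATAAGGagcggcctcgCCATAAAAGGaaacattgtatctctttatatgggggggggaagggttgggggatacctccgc

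The motifs, searched on both strands of windows of 300 bases that run to 50 bases past the start site, were the CArG box, the ETS core CCGGAA, the AP-1 site TGANTCA, the cyclic AMP element CRE as TGACGTC and the EGR site core GNGGGCG. The search covered the 11 windows of the 7 members with an entry (Fos, Fosb, Jun, Junb, Egr2, Ier3 and Srf). The Srf window held 2 CArG boxes, at -82 to -73 and at -62 to -53 from the start site, with an ETS core and an EGR core upstream of them. Of the 5 windows of Egr2, 4 held a CArG box, and 3 of those held a CRE as well. Those 3 windows overlap, and their CArG boxes and CREs are the same stretches of sequence. The CArG box of the remaining window is a different one. The Fos window held an EGR core at -118 to -112 and no CArG box. The classical serum response element of Fos lies further upstream than this window. Fosb held 3 EGR cores and Jun 1, while Junb and Ier3 held none of the 5 motifs. Of all 32851 windows in the table, 1.63% held a CArG box, 14.9% an ETS core, 7.81% an AP-1 site, 3.21% a CRE and 31.3% an EGR core. A match describes these letters, not a bound site. Only exact matches were counted, so near matches such as tgacgta in the Fos window and tgacatca in the Jun window are not marked.

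**Figure D1:**
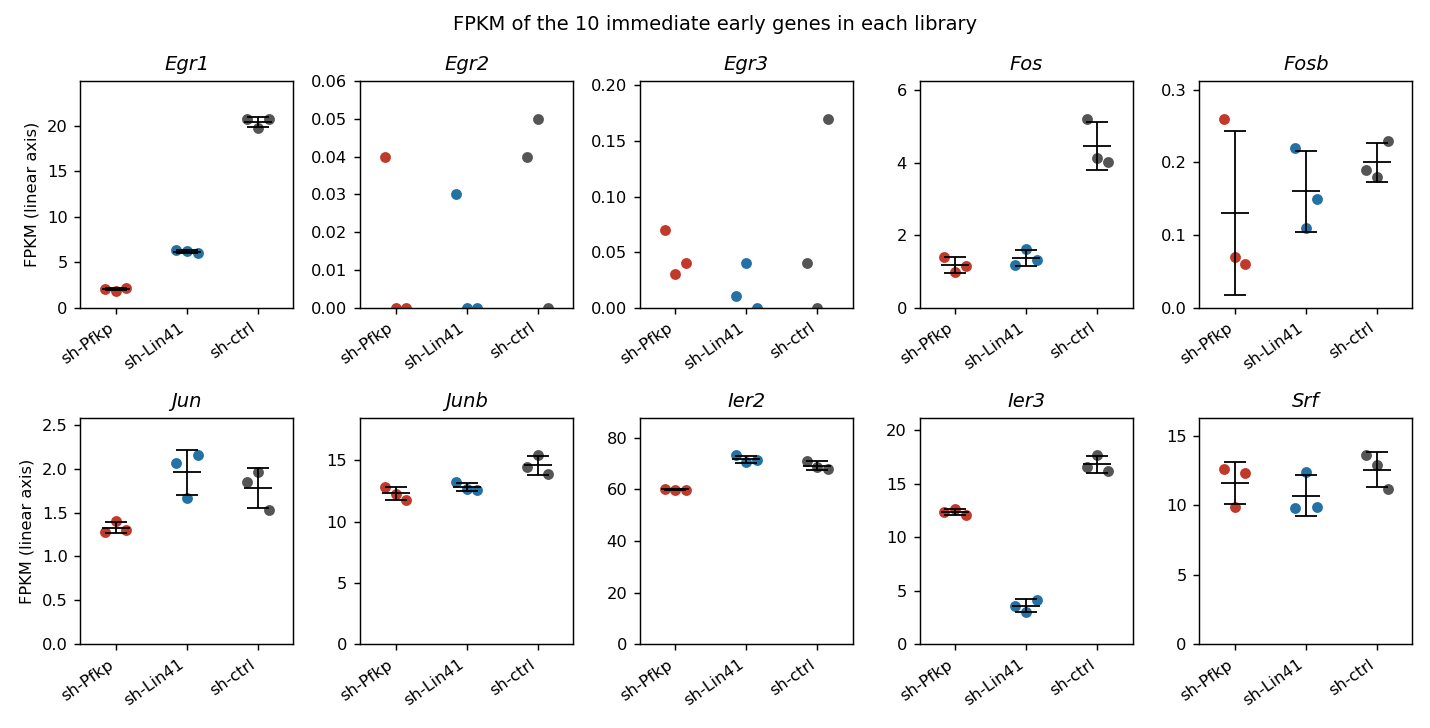
FPKM as deposited (fragments per kilobase, scaled to depth) of each member in each library, on a linear axis that starts at 0 in each panel; points are the 3 libraries of sh-Pfkp, sh-Lin41 and sh-ctrl cells, and bars are the mean ± SD, left out for Egr2 and Egr3. Egr1 forms 3 separate steps, at 2.01, 6.14 and 20.4 FPKM; Fos is low in both knockdowns, and Ier3 is low in sh-Lin41 libraries, between 3 and 4.18 FPKM.

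Egr1 (ENSMUSG00000038418), the zinc finger factor that is among the first genes to answer a growth signal, had the largest fold change of the members in sh-Pfkp cells. Its deposited level was 2.06, 1.87 and 2.1 FPKM in the sh-Pfkp libraries, 6.27, 6.2 and 5.95 FPKM in the sh-Lin41 libraries and 20.7, 19.8 and 20.7 FPKM in the sh-ctrl libraries. The 3 groups did not overlap, and the spread within each was narrow against the steps between them. Over all genes tested, 30.8% had sh-Pfkp below sh-ctrl without overlap and 29.7% had sh-Lin41 below sh-ctrl, while between the knockdowns 30.4% had sh-Pfkp below and 29.5% above sh-Lin41, so separation alone is common in these libraries. From the counts, the level in sh-Pfkp was 10.1-fold lower than in sh-ctrl libraries (log2 fold change -3.33, SE 0.064). In sh-Lin41 libraries it was 3.23-fold lower than in sh-ctrl (log2 fold change -1.69, SE 0.0511). Set directly against each other, sh-Pfkp was 3.11-fold lower than sh-Lin41 (log2 fold change -1.64, SE 0.0767). Both comparisons with control use the same sh-ctrl libraries, here and for every gene below, and the direct comparison does not use them for its difference. In all 20 alternative settings of each of the 3 comparisons the direction was the same, with log2 values from -3.38 to -2.83, from -1.72 to -1.58 and from -1.68 to -1.25. Among these settings the 2-fold minimum keeps the fold change of the main fit.

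The other EGR genes were barely present. Egr2, a factor of hindbrain and Schwann cell development, had 2, 0 and 0 counts in sh-Pfkp, 2, 0 and 0 in sh-Lin41 and 2, 2 and 0 in sh-ctrl libraries. The ratio of its summed counts per depth was 0.447 for sh-Pfkp over sh-ctrl (exact 95% interval 0.0404 to 3.12) and 0.437 for sh-Lin41 over sh-ctrl (0.0395 to 3.05). Both intervals include an equal level as well as a drop of the size seen for Egr1. Egr3, a factor known in muscle spindles and lymphocytes, had 5, 2 and 3 counts in sh-Pfkp, 1, 2 and 0 in sh-Lin41 and 2, 0 and 9 in sh-ctrl libraries. Its ratio was 0.812 for sh-Pfkp over sh-ctrl (0.309 to 2.11) and 0.238 for sh-Lin41 over sh-ctrl (0.0427 to 0.902). Of the 11 control counts, 9 came from sh-ctrl replicate 3, so the low ratio in sh-Lin41 rests on that library, and these intervals cover counting error only. For Egr2 no difference between groups was detectable at this depth.

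Among the AP-1 genes, Fos was low in both knockdowns, and Jun and Junb moved little. Fos (ENSMUSG00000021250), the prototype immediate early gene, stood at 1.39, 0.97 and 1.16 FPKM in sh-Pfkp, 1.18, 1.61 and 1.32 FPKM in sh-Lin41 and 5.21, 4.13 and 4.01 FPKM in sh-ctrl libraries. Both knockdowns lay below every control library, and they overlapped each other. The fold change was 3.66-fold lower for sh-Pfkp over sh-ctrl (log2 -1.87, SE 0.158) and 3.23-fold lower for sh-Lin41 over sh-ctrl (log2 -1.69, SE 0.153). Between the knockdowns the log2 difference was -0.18 with an SE of 0.187. No step between sh-Pfkp and sh-Lin41 like that of Egr1 could be read for Fos, while the log2 fold change of both genes in sh-Lin41 over sh-ctrl was -1.69.

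Fosb, the close relative of Fos, was near the limit of detection, with 7, 5 and 4 counts in sh-Pfkp, 10, 7 and 10 in sh-Lin41 and 10, 10 and 15 in sh-ctrl libraries. Its log2 fold change was -1.22 (SE 0.467) for sh-Pfkp over sh-ctrl, -0.56 (SE 0.419) for sh-Lin41 over sh-ctrl and -0.67 (SE 0.493) for sh-Pfkp over sh-Lin41. The deposited FPKM did not follow the counts: sh-Pfkp replicate 1 was at 0.26 FPKM, above all control libraries, which lay between 0.18 and 0.23 FPKM. On the log2(FPKM + 1) scale the difference between sh-Pfkp and sh-ctrl shrank to -0.09.

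Jun (ENSMUSG00000052684), the partner of the FOS proteins, was at 1.28, 1.4 and 1.3 FPKM in sh-Pfkp, 2.06, 1.67 and 2.15 FPKM in sh-Lin41 and 1.85, 1.96 and 1.53 FPKM in sh-ctrl libraries. The sh-Pfkp libraries lay below both other groups, which overlapped each other. Its log2 fold change was -0.37 (SE 0.145) for sh-Pfkp over sh-ctrl, 0.14 (SE 0.136) for sh-Lin41 over sh-ctrl and -0.51 (SE 0.14) for sh-Pfkp over sh-Lin41. Junb (ENSMUSG00000052837), an AP-1 subunit with weaker activating power than Jun, was at 12.8, 12.3 and 11.8 FPKM in sh-Pfkp, 13.2, 12.7 and 12.6 FPKM in sh-Lin41 and 14.5, 15.4 and 13.8 FPKM in sh-ctrl libraries. Both knockdowns lay under the controls by a little, with log2 fold changes of -0.19 (SE 0.0636) and -0.18 (SE 0.063). In GENCODE M21 Junb overlaps Prdx2 on the opposite strand, and Prdx2 held 32236 counts over the 9 libraries. Whether counting used the strand is not given in the sources used here. Reads of the pair cannot be told apart without it.

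The early response genes differed from each other. Ier2 (ENSMUSG00000053560), which encodes a nuclear protein of the early growth response, was the most abundant member by FPKM in every group. It stood at 60.3, 60.0 and 59.8 FPKM in sh-Pfkp, 73.1, 70.7 and 71.3 FPKM in sh-Lin41 and 71.2, 68.5 and 67.8 FPKM in sh-ctrl libraries. The sh-Pfkp libraries lay below the rest by a small margin, with log2 fold changes of -0.16 (SE 0.0324) over sh-ctrl and -0.21 (SE 0.0317) over sh-Lin41, and sh-Lin41 over sh-ctrl was 0.05 (SE 0.0315).

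Ier3 (ENSMUSG00000003541), an early response gene with roles in cell survival and in holding ERK active, was, like Egr1, highest in sh-ctrl libraries, but with the knockdowns in the other order. Its level was 12.4, 12.7 and 12.0 FPKM in sh-Pfkp, 3.6, 3 and 4.18 FPKM in sh-Lin41 and 16.6, 17.6 and 16.2 FPKM in sh-ctrl libraries. The 3 groups did not overlap, and sh-Lin41 was the lowest. In sh-Lin41 libraries Ier3 was 4.68-fold lower than in sh-ctrl (log2 -2.23, SE 0.106). In sh-Pfkp libraries it was 1.31-fold lower than in sh-ctrl (log2 -0.39, SE 0.087). Directly compared, sh-Pfkp was 3.57-fold higher than sh-Lin41 (log2 1.84, SE 0.11).

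Srf (ENSMUSG00000015605), the factor that binds CArG boxes, showed no clear step. It was at 12.6, 9.87 and 12.4 FPKM in sh-Pfkp, 9.77, 12.4 and 9.9 FPKM in sh-Lin41 and 13.6, 12.9 and 11.1 FPKM in sh-ctrl libraries, and all 3 groups overlapped. Its log2 fold change was -0.07 (SE 0.0697) for sh-Pfkp over sh-ctrl, -0.23 (SE 0.0703) for sh-Lin41 over sh-ctrl and 0.16 (SE 0.07) for sh-Pfkp over sh-Lin41. Without sh-Pfkp replicate 2 the first of these was 0.02.

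**Figure D2:**
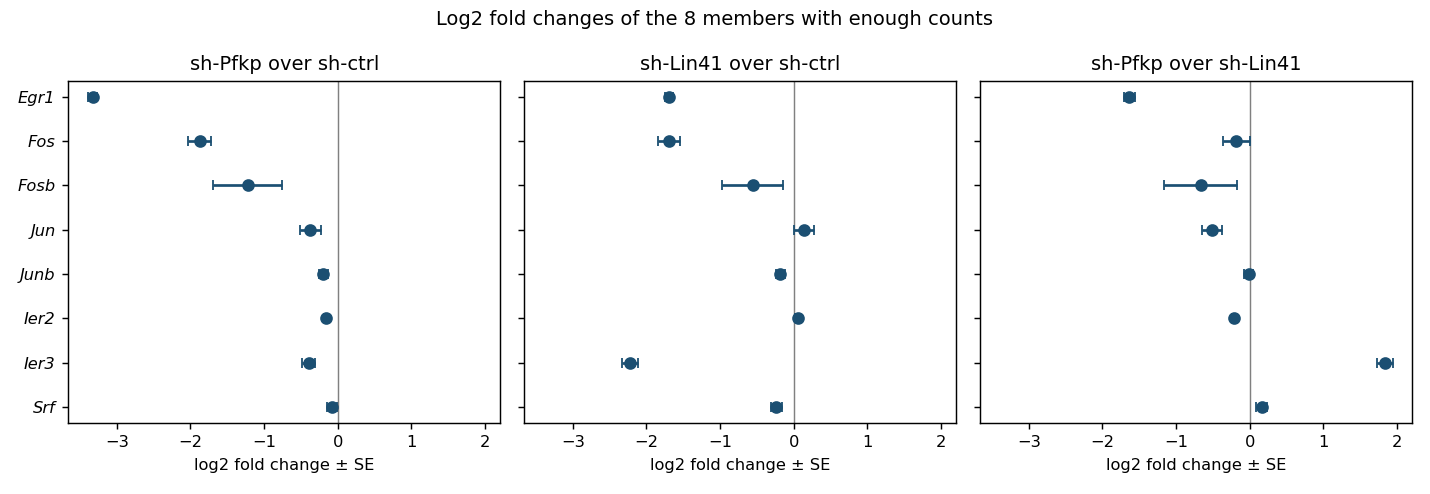
Log2 fold change of the 8 members that entered the fit, for sh-Pfkp over sh-ctrl, sh-Lin41 over sh-ctrl and sh-Pfkp over sh-Lin41; bars are ± 1 SE from the fit across all genes. Egr1 and Fos lie below -1.6 in both comparisons with control, Ier3 only in sh-Lin41 over sh-ctrl, at -2.23, and Jun, Junb, Ier2 and Srf lie between -0.51 and 0.16 in all 3.

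Over the 8 genes in the fit, 7 were lower and 0 higher in sh-Pfkp than in sh-ctrl libraries at an adjusted p under 0.05, where 28.3% of all genes tested were lower and 28.3% higher. In sh-Lin41 against sh-ctrl libraries 5 were lower and 0 higher, where 27.3% of all genes were lower and 26.9% higher. Between sh-Pfkp and sh-Lin41, 2 were higher and 3 lower, where 27.4% were higher and 27.8% lower. At least a 2-fold drop was reached by 3 members in sh-Pfkp (Egr1, Fos and Fosb) and by 3 in sh-Lin41 (Egr1, Fos and Ier3), beside 4.26% and 2.22% of all genes. The members' median log2 fold change was -0.38, -0.40 and -0.20 in the 3 comparisons, and that of all genes tested was -0.01, 0.00 and -0.01. Since the members were chosen on these contrasts, nothing is read from these counts. The count of 7 was 4 with DESeq2 and 4 without sh-Pfkp replicate 3. Of the members higher in sh-Pfkp than sh-Lin41, Srf passed in 9 of 20 alternatives and not with the replicate block or without sh-Pfkp replicates 1 or 3 or sh-Lin41 replicates 1 or 3.

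The order of the members by mean FPKM differed between the groups. In sh-Pfkp libraries it ran from Ier2 at 60.0 over Ier3 at 12.4, Junb at 12.3, Srf at 11.6, Egr1 at 2.01, Jun at 1.33 and Fos at 1.17. In sh-Lin41 libraries it ran from Ier2 at 71.7 over Junb at 12.8, Srf at 10.7, Egr1 at 6.14, Ier3 at 3.59, Jun at 1.96 and Fos at 1.37. In sh-ctrl libraries it ran from Ier2 at 69.2 over Egr1 at 20.4, Ier3 at 16.8, Junb at 14.6, Srf at 12.5, Fos at 4.45 and Jun at 1.78. Fosb, Egr3 and Egr2 were the 3 lowest in every group. In sh-Pfkp libraries the per-library values of Ier3 and Junb, Junb and Srf, Jun and Fos, and Fosb and Egr3 overlapped, so these neighbours do not differ beyond their spread, and in every group those of Egr3 and Egr2 did. All other neighbours in these orders were apart. Egr1 was number 5 in sh-Pfkp, number 4 in sh-Lin41 and number 2 in sh-ctrl libraries. The authors' deposited tables of genes past their own limits list Egr1 and Fos for the Pfkp hairpin and Egr1, Fos and Ier3 for the Lin41 hairpin, and none of the other members.

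Likeness to Egr1 was ranked over 9710 tested genes whose mean reached 5 CPM, leaving out symbols that are predicted or clone names. The 6 nearest over the 9 libraries were named by the root mean square difference of log2(CPM + 0.1) values centred on each gene's mean. They were Cacna1h (0.244 on the log2 scale), which encodes a T-type calcium channel, Acvrl1 (0.467), a type I receptor of the TGF-beta family, Pou2f3 (0.578), a POU factor, Mpp2 (0.607), a scaffold protein gene, Nxph4 (0.614), a neurexophilin gene, and Tgm2 (0.618), tissue transglutaminase. Cacna1h was at 2.0, 2.56 and 2.79 CPM in sh-Pfkp, 5.47, 5.6 and 5.4 CPM in sh-Lin41 and 18, 18 and 20.0 CPM in sh-ctrl libraries. Like Egr1 it was lowest in sh-Pfkp and highest in sh-ctrl libraries, with log2 fold changes of -2.93 for sh-Pfkp over sh-ctrl, -1.76 for sh-Lin41 over sh-ctrl and -1.17 for sh-Pfkp over sh-Lin41. No other member that was ranked was near: Jun ranked 1235 (1.22), Junb 1995 (1.27), Ier2 2370 (1.29), Srf 3453 (1.33) and Ier3 8965 (1.52). Fos and Fosb lay under the floor of 5 CPM and were not ranked, so how near they lie to Egr1 is not given. Fos averaged 2.54 CPM in sh-Pfkp, 2.86 CPM in sh-Lin41 and 9.28 CPM in sh-ctrl libraries, so it too was highest in sh-ctrl. These genes were picked for their likeness in these libraries, so it is a description.

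**Figure D3:**
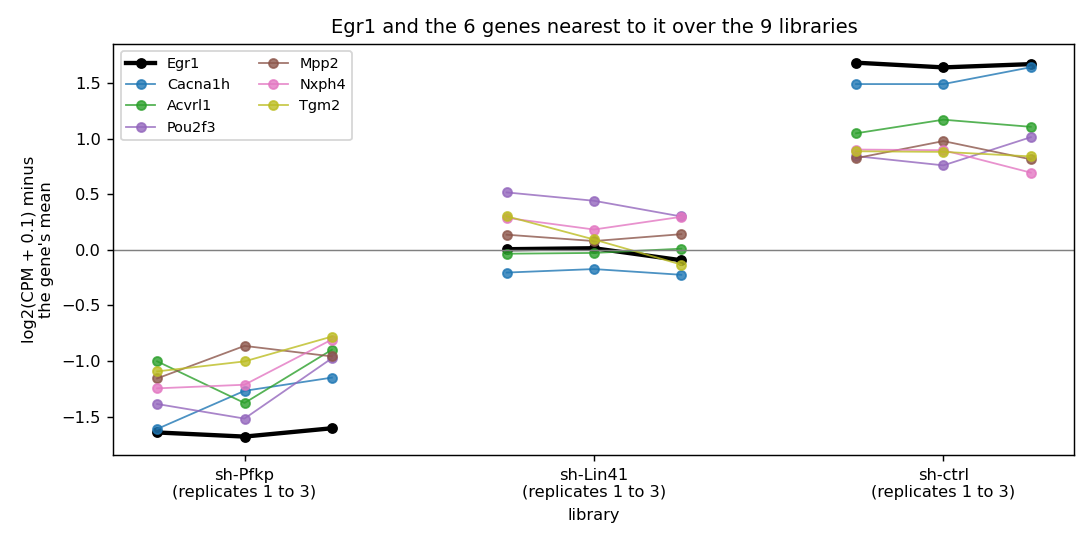
Log2(CPM + 0.1), centred on each gene's mean over 9 libraries, for Egr1 and the 6 genes nearest to it among those ranked, in the sh-Pfkp, sh-Lin41 and sh-ctrl libraries. All 7 run lowest in sh-Pfkp and highest in sh-ctrl libraries; Cacna1h lies closest to Egr1, at a root mean square difference of 0.244.

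Other immediate early transcription factor genes were lower more often than higher in both knockdowns. Of 16 listed, 12 entered the fit. In sh-Pfkp over sh-ctrl 7 fell and 2 rose (median log2 -0.58, against -0.01 over all genes), in sh-Lin41 over sh-ctrl 7 fell and 1 rose (median -0.33, against 0.00), and in sh-Pfkp over sh-Lin41 5 were lower and 4 higher (median -0.15, against -0.01). Of all genes tested, 28.3% fell and 28.3% rose in sh-Pfkp, 27.3% fell and 26.9% rose in sh-Lin41, and 27.8% were lower and 27.4% higher between the knockdowns. Nfil3, a bZIP repressor, fell by 1.07 in sh-Pfkp (SE 0.167, adjusted p = 2.12e-06 by edgeR's quasi-likelihood test, as for each adjusted p below) and by 0.46 in sh-Lin41 cells (SE 0.154, adjusted p = 0.0125). Maff, a small MAF factor, fell by 0.93 in sh-Pfkp (SE 0.133, adjusted p = 5.35e-07) and by 0.74 in sh-Lin41 cells (SE 0.129, adjusted p = 1.25e-05).

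The AP-1 relatives divided. Jund, which unlike Jun is expressed at a steady level in most cells, fell by 0.57 in sh-Pfkp (SE 0.0499, adjusted p = 2.21e-11) and by 0.15 in sh-Lin41 cells (SE 0.0472, adjusted p = 0.00638), a call that was lost without sh-ctrl replicate 1, and sh-Pfkp was lower than sh-Lin41 (log2 -0.42, SE 0.0498, adjusted p = 1.59e-08). Fosl2 had the opposite order: it fell by 1.43 in sh-Lin41 (SE 0.162, adjusted p = 5.87e-09) and by 0.59 in sh-Pfkp cells (SE 0.148, adjusted p = 0.00105), and sh-Pfkp was higher than sh-Lin41 (log2 0.84, SE 0.171, adjusted p = 0.000105). Atf3, a stress-induced factor named after its values were seen, averaged 0.62 ± 0.221 CPM in sh-Pfkp, 1.37 ± 0.244 CPM in sh-Lin41 and 2.24 ± 0.124 CPM in sh-ctrl libraries (SD, n = 3 each) and fell by 1.86 in sh-Pfkp cells (SE 0.294, adjusted p = 2.62e-06). Its fall of 0.71 in sh-Lin41 cells (SE 0.25, adjusted p = 0.0168) was lost with DESeq2 and without sh-Lin41 replicate 1 or 2.

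Klf6, a zinc finger factor also induced by serum, went the other way: it rose by 0.69 in sh-Pfkp (SE 0.0572, adjusted p = 7.83e-12) and by 0.81 in sh-Lin41 cells (SE 0.0561, adjusted p = 9.24e-14). Klf10, a TGF-beta inducible factor, fell by 0.40 in sh-Lin41 cells (SE 0.035, adjusted p = 2.33e-11). Nr4a1, an orphan nuclear receptor, stood higher in sh-Pfkp libraries, set against sh-Lin41 (log2 0.41, SE 0.0533, adjusted p = 6.57e-08). Without sh-ctrl replicate 1 the rises were 4 in sh-Pfkp and 2 in sh-Lin41, and 3 genes rather than 5 were lower in sh-Pfkp than sh-Lin41 with DESeq2, without sh-Pfkp replicate 1 or without sh-Lin41 replicate 2.

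**Figure D4:**
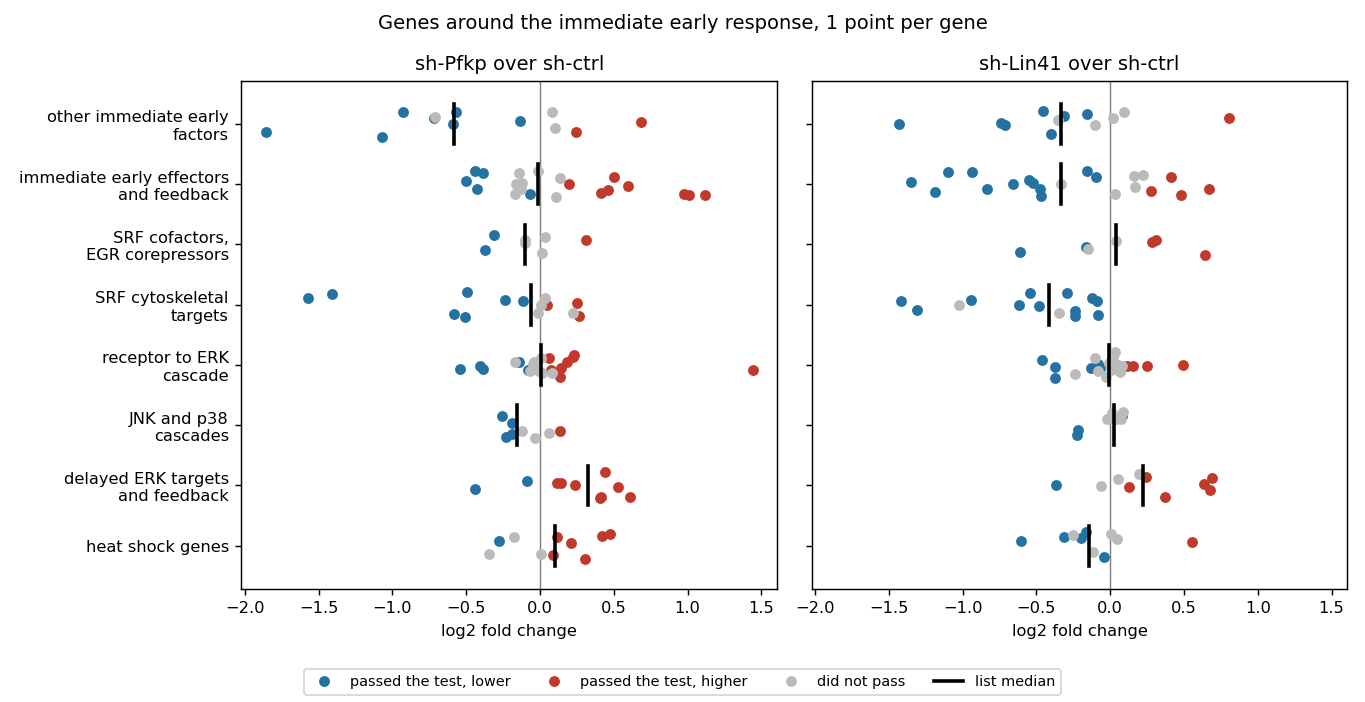
Log2 fold change of each tested gene of 8 lists around the immediate early response, for sh-Pfkp over sh-ctrl (left) and sh-Lin41 over sh-ctrl (right); blue and red points passed the test (lower, higher), grey points did not, and the black line is the list's median. Immediate early effector genes have a median of -0.01 in sh-Pfkp and -0.33 in sh-Lin41, and delayed ERK targets lie mostly to the right in both, with medians of 0.32 and 0.22.

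Immediate early genes for effectors and feedback had more falls in sh-Lin41 cells than in sh-Pfkp cells, each against sh-ctrl. Of 22 listed, 21 entered the fit. In sh-Pfkp over sh-ctrl 8 rose and 5 fell (median log2 -0.01), in sh-Lin41 over sh-ctrl 4 rose and 12 fell (median -0.33), and in sh-Pfkp over sh-Lin41 14 were higher and 4 lower (median 0.34). Beside the 28.3% higher and 28.3% lower of all genes, the sh-Pfkp count is near the background. Of all genes, 26.9% were higher and 27.3% lower in sh-Lin41 over sh-ctrl, and 27.4% higher and 27.8% lower in sh-Pfkp over sh-Lin41. Dusp1, the phosphatase that switches off MAP kinases, fell in both, by 0.50 in sh-Pfkp (SE 0.0677, adjusted p = 1.93e-07) and by 0.84 in sh-Lin41 cells (SE 0.0698, adjusted p = 6.59e-12). Plk2, a polo-like kinase gene, rose in both, by 0.98 in sh-Pfkp (SE 0.0512, adjusted p = 8.59e-17) and by 0.67 in sh-Lin41 cells (SE 0.0526, adjusted p = 1.87e-12). For its relative Plk3, sh-Pfkp lay above sh-Lin41 (log2 0.65, SE 0.0466, adjusted p = 1.58e-13). With library totals alone as the scaling, and on the FPKM scale, 8 rather than 5 fell in sh-Pfkp.

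Gadd45g, a growth arrest gene, was at 3.42, 3.18 and 2.85 CPM in sh-Pfkp, 0.803, 0.917 and 0.716 CPM in sh-Lin41 and 1.89, 2.81 and 1.64 CPM in sh-ctrl libraries, and sh-Pfkp was higher than sh-Lin41 (log2 1.94, SE 0.246, adjusted p = 4.89e-08). Mcl1, a survival gene, rose in sh-Lin41 cells by 0.28 (SE 0.0188, adjusted p = 4.89e-14), and sh-Pfkp was lower than sh-Lin41 (log2 -0.35, SE 0.0187, adjusted p = 1.83e-16). Chosen after their values were seen, Ptgs2, the inducible cyclooxygenase, and the matricellular genes Ccn1 and Ccn2 were higher in sh-Pfkp than in sh-ctrl libraries, by 1.11 (SE 0.347, adjusted p = 0.00696), 1.01 (SE 0.207, adjusted p = 0.000109) and 0.42 (SE 0.116, adjusted p = 0.00281) on the log2 scale. On the FPKM scale the rise of Ccn2 did not pass. Fibroblast markers went both ways: of 9 in the fit 6 rose and 2 fell in sh-Pfkp over sh-ctrl, where 28.3% of all genes rose and 28.3% fell. Col1a2 rose by 7.6 (SE 0.47, adjusted p = 5.26e-15), while Pdgfrb fell by 1.68 (SE 0.147, adjusted p = 2.28e-11). Thy1 was at 1.85 CPM in sh-Pfkp and 3.7 CPM in sh-ctrl libraries. The summed level of all 12 was 32.2 to 37.4 CPM in sh-Pfkp, 12.6 to 15.4 CPM in sh-Lin41 and 16.8 to 17.5 CPM in sh-ctrl libraries. No marker was at 0 in all sh-Pfkp libraries, while Dcn, Lum and Postn were at 0 in every sh-Lin41 and sh-ctrl library. Their part in these rises, or in the members' levels, was not tested.

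Of 8 cofactor and corepressor genes 7 entered the fit, with 1 higher and 2 lower in sh-Pfkp over sh-ctrl, 3 higher and 2 lower in sh-Lin41 over sh-ctrl, and 0 higher and 2 lower in sh-Pfkp over sh-Lin41. With 28.3%, 26.9% and 27.4% of all genes higher and 28.3%, 27.3% and 27.8% lower in these comparisons, nothing is read from counts over so few genes. Of the ternary complex factor genes, Elk3, which represses in the absence of ERK activity, rose by 0.64 (SE 0.0463, adjusted p = 2.24e-13) and Elk4 by 0.31 (SE 0.07, adjusted p = 0.000399) in sh-Lin41 cells, and sh-Pfkp was lower than sh-Lin41 for both, by -0.61 (SE 0.0454, adjusted p = 5.13e-13) and -0.41 (SE 0.0698, adjusted p = 8.69e-06) on the log2 scale. Mrtfb, an actin-regulated cofactor of SRF, rose by 0.31 in sh-Pfkp (SE 0.0523, adjusted p = 8.2e-06) and by 0.28 in sh-Lin41 cells (SE 0.052, adjusted p = 2.77e-05). Nab2, a corepressor that EGR1 itself induces and that binds it, fell by 0.37 in sh-Pfkp (SE 0.116, adjusted p = 0.00659) and by 0.61 in sh-Lin41 cells (SE 0.118, adjusted p = 5.41e-05). The fall of Nab2 in sh-Pfkp cells was lost on the FPKM scale. Without sh-Lin41 replicate 1 the count of 2 lower in sh-Lin41 was 1, and 1 gene was higher in sh-Pfkp than sh-Lin41 without sh-Pfkp replicate 3 or sh-Lin41 replicate 2.

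Cytoskeletal target genes of SRF and its actin-regulated cofactors were lower in sh-Lin41 cells. Of 18 listed 14 entered the fit, and 12 fell and 0 rose in sh-Lin41 over sh-ctrl (median log2 -0.41), while 7 fell and 3 rose in sh-Pfkp over sh-ctrl (median -0.06), and 8 were higher and 2 lower in sh-Pfkp over sh-Lin41 (median 0.13). Of all genes, 27.3% fell and 26.9% rose in sh-Lin41, and 28.3% fell and 28.3% rose in sh-Pfkp, each over sh-ctrl. Between the knockdowns 27.4% were higher and 27.8% lower in sh-Pfkp. Cnn2, a calponin gene, fell by 1.42 in sh-Lin41 cells (SE 0.0766, adjusted p = 1.6e-16) and its level in sh-Pfkp lay above that in sh-Lin41 libraries (log2 1.18, SE 0.0777, adjusted p = 2.61e-14). The tropomyosin gene Tpm2 fell by 1.41 in sh-Pfkp (SE 0.105, adjusted p = 5.72e-13) and by 0.94 in sh-Lin41 cells (SE 0.0991, adjusted p = 1.18e-09), and Tpm4 fell by 0.58 (SE 0.0355, adjusted p = 3.81e-15) and 0.62 (SE 0.0354, adjusted p = 5.86e-16). Actb, beta-actin, rose by 0.25 in sh-Pfkp (SE 0.0156, adjusted p = 5.13e-15) and fell by 0.24 in sh-Lin41 cells (SE 0.0157, adjusted p = 2.89e-14). On the FPKM scale 1 rather than 3 rose in sh-Pfkp.

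Genes of the cascade that leads to these genes passed the test about as often as genes in general. Of 22 genes of the receptor to ERK cascade 21 were found and tested. In sh-Pfkp over sh-ctrl 8 rose and 5 fell (median log2 0.01), in sh-Lin41 over sh-ctrl 4 rose and 6 fell (median -0.01), and in sh-Pfkp over sh-Lin41 9 were higher and 4 lower (median 0.04). Over all genes tested, 28.3% rose and 28.3% fell in sh-Pfkp, 26.9% rose and 27.3% fell in sh-Lin41, and 27.4% were higher and 27.8% lower between the knockdowns, so the calls in both directions together are near the share of all genes. The largest fold among those that passed was of Fgfr2, an FGF receptor gene, which rose by 1.44 in sh-Pfkp cells (SE 0.15, adjusted p = 1.03e-09). Map2k1, the gene of MEK1, fell by 0.38 in sh-Pfkp (SE 0.0337, adjusted p = 2.53e-11) and by 0.37 in sh-Lin41 cells (SE 0.0334, adjusted p = 3.7e-11). Mapk3, the gene of ERK1, fell by 0.54 in sh-Pfkp cells (SE 0.0506, adjusted p = 9e-11), and sh-Pfkp was lower than sh-Lin41 (log2 -0.44, SE 0.0501, adjusted p = 6.06e-09). Shc1, an adaptor gene, fell by 0.46 in sh-Lin41 cells (SE 0.032, adjusted p = 7.63e-14). The count of 5 falls in sh-Pfkp was 3 with DESeq2 and without sh-Pfkp replicate 3, sh-ctrl replicate 1 or sh-ctrl replicate 2, and 8 with library totals alone. Of 8 genes of the JNK and p38 cascades, 1 rose and 4 fell in sh-Pfkp and 1 rose and 2 fell in sh-Lin41 over sh-ctrl, all by less than 0.27 on the log2 scale, with Map3k1 the largest in both at -0.26 (SE 0.0449, adjusted p = 9.98e-06) and -0.22 (SE 0.0443, adjusted p = 7.49e-05). In sh-Lin41 cells the fall of Map3k1 was lost on both FPKM scales. The single rise in sh-Lin41 cells was lost with DESeq2 and without sh-ctrl replicate 1.

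Delayed targets and feedback genes of ERK rose more often than they fell in both knockdowns. Of 10 tested, 8 rose and 2 fell in sh-Pfkp over sh-ctrl (median log2 0.32), where 28.3% of all genes rose and 28.3% fell. In sh-Lin41 over sh-ctrl 6 rose, 1 fell and 3 did not pass (median 0.22), where 26.9% of all genes rose and 27.3% fell. Between sh-Pfkp and sh-Lin41, 2 were higher and 3 lower (median -0.01), where 27.4% of all genes were higher and 27.8% lower. Spry4, a Sprouty inhibitor of receptor signalling, rose by 0.42 in sh-Pfkp (SE 0.0244, adjusted p = 1.5e-15) and by 0.69 in sh-Lin41 cells (SE 0.0239, adjusted p = 1.64e-21). Spred1, which holds RAS and RAF inactive, rose by 0.44 (SE 0.0286, adjusted p = 1.78e-14) and 0.63 (SE 0.028, adjusted p = 8.36e-19), and Etv1, an ETS factor, by 0.41 (SE 0.0469, adjusted p = 7.66e-09) and 0.68 (SE 0.0453, adjusted p = 3.57e-14). Spry1, named after its values were seen, fell by 0.44 in sh-Pfkp (SE 0.11, adjusted p = 0.000985) and by 0.37 in sh-Lin41 cells (SE 0.109, adjusted p = 0.00488), the second of which was lost without sh-ctrl replicate 3. The count of falls in sh-Pfkp was 1 with DESeq2 and without sh-Pfkp replicate 1 or sh-ctrl replicate 3, and in sh-Lin41 it was 2 without sh-ctrl replicate 2 and 0 without sh-ctrl replicate 3.

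Genes for proteins that bind AU-rich elements, which control how long immediate early mRNAs last, were listed as well. Of 6, 4 rose and 1 fell in sh-Pfkp, and 3 rose and 3 fell in sh-Lin41 over sh-ctrl. Of all genes, 28.3% rose and 28.3% fell in sh-Pfkp, and 26.9% rose and 27.3% fell in sh-Lin41. Nothing is read from counts over so few genes. Zfp36, the gene of tristetraprolin, which promotes decay and is itself an immediate early gene, fell by 0.44 in sh-Pfkp (SE 0.0914, adjusted p = 0.000138) and by 0.93 in sh-Lin41 cells (SE 0.0955, adjusted p = 6.46e-10). Its relative Zfp36l1 rose by 0.19 in sh-Pfkp (SE 0.0342, adjusted p = 1.48e-05) and by 0.41 in sh-Lin41 cells (SE 0.0333, adjusted p = 3.61e-12). Both genes are also in the effector list.

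Since immediate early genes answer to handling, stress-related transcripts are given beside them. Of 10 heat shock genes 6 rose and 1 fell in sh-Pfkp over sh-ctrl, where 28.3% of all genes rose and 28.3% fell. In sh-Lin41 over sh-ctrl 1 rose and 5 fell, where 26.9% of all genes rose and 27.3% fell. Their summed level was 12840 to 12870 CPM in sh-Pfkp, 10430 to 10640 CPM in sh-Lin41 and 11400 to 11540 CPM in sh-ctrl libraries. This sum rests largely on abundant genes such as Hspa8 and Hsp90aa1, at 5430 and 4755 CPM in sh-Pfkp libraries. Hspa1a was at 2.148, 1.83 and 2.745 CPM and Hspa1b at 6.61, 6.26 and 7.47 CPM in sh-Pfkp, sh-Lin41 and sh-ctrl libraries. Both were highest in sh-ctrl on average, but their sh-Pfkp and sh-ctrl values overlapped. Hspb1, a small heat shock protein gene, rose by 0.47 in sh-Pfkp (SE 0.0228, adjusted p = 1.06e-17) and by 0.55 in sh-Lin41 cells (SE 0.0226, adjusted p = 1.22e-19). It was the only gene of this list that rose in sh-Lin41 cells. There Hspd1 fell by 0.31 (SE 0.015, adjusted p = 6.55e-18) and Hsp90aa1 by 0.19 (SE 0.0125, adjusted p = 1.32e-14). Mitochondrially encoded transcripts summed to 67850 to 70280 CPM in sh-Pfkp, 71100 to 73820 CPM in sh-Lin41 and 50800 to 52730 CPM in sh-ctrl libraries. Of 13, 12 rose in sh-Pfkp and 13 in sh-Lin41 over sh-ctrl, beside 28.3% and 26.9% of all genes. The part of handling or of RNA composition in the members' levels was not tested.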

How the data were processed

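RNA-seq of 9 libraries in 3 hairpin groups was analysed from the deposited gene tables. Per the labels, Trizol was used for extraction and a NEBNext Ultra RNA kit for the libraries. Tools named in the submitters' processing notes are RSEM, StringTie 1.3.1, HISAT2, Bowtie2 2.2.8 and fastp 0.18.0. Not given in the sources used here are the build, the gene annotation, whether counting used the strand, and the authors' test. The read counts per gene were deposited as whole numbers, and since RSEM is named they may be rounded estimates. FPKM values were deposited beside them, per the file headers. The authors' tables also hold a log2 ratio with a p-value and an FDR for each gene, of which only the lists of genes past the authors' own limits were used. The control columns were identical in both tables (6 of 6), so all 9 libraries entered 1 fit.

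Counts were tested with edgeR 4.0.16 in R 4.3.3: TMM scaling after filterByExpr, the quasi-likelihood test with 6 residual degrees of freedom, and p-values adjusted by Benjamini-Hochberg over 13158 genes with a threshold of 0.05. Each SE is the log2 fold change over the square root of F. CPM values use the TMM-scaled library size, and 4283 genes had 0 counts in all libraries. Ratios of summed counts have exact 95% intervals that cover counting error only. The steps were tested on simulated counts. The members, the gene lists and the alternatives were chosen with earlier results of these data known. Named genes are the members, the targeted genes, the 6 nearest to Egr1 and, per list and comparison, up to 4 past the test with the smallest adjusted p, of which some are left out for length. Genes picked on their values are marked. Alternatives were DESeq2 1.42.0, limma 3.58.1 (voom on counts, trend on FPKM), other filters and scalings, a fit on 6 libraries only, a minimum of 2-fold, a replicate block and the omission of each library.

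Replicate pairs had a median chi-square of 0.661 to 0.763 over genes with at least 50 counts, against 0.455 from counting noise, so none was treated as 1 library. Nothing in the labels says that libraries of 1 group are separate cultures. The p-values then reflect the spread between these libraries alone, which may be technical. What the labels' replicate numbers mark is not stated. Same-numbered sh-Pfkp and sh-ctrl libraries deviated together (r of 0.108, 0.307 and 0.449 across 8630 genes). Differently numbered pairs of these groups lay at -0.389 to 0.143. Between other groups a pair with different numbers, sh-Pfkp replicate 2 and sh-Lin41 replicate 3, reached 0.402. The values of r thus do not settle whether equal numbers mark pairs. Each p-value and SE given comes from the fit on group alone, without pairing, and the replicate block is an alternative only. For sh-Lin41, r with same-numbered libraries lay at -0.314 to 0.0344. Promoters were matched by symbol to RefSeq's table for GRCm38.p6, where 7 of 10 members had an entry.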

Additional observations from a re-analysis of the deposited data

How the results depend on the processing

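Over 20 alternatives, 473 of 476 member fold changes kept their direction. The 2-fold minimum reuses the fold changes of the main fit, so it could turn none of them. Leaving out a library of the group outside a comparison could hardly turn one. The exceptions came from leaving out 1 library. Srf in sh-Pfkp over sh-ctrl ran between -0.129 and 0.017, above 0 without sh-Pfkp replicate 2, and Junb in sh-Pfkp over sh-Lin41 between -0.0396 and 0.0214, above 0 without sh-Pfkp replicate 3 and without sh-Lin41 replicate 1. Among other named genes only Spry1 in sh-Pfkp over sh-Lin41 turned, between -0.191 and 0.00292, above 0 without sh-Pfkp replicate 2. None of these was a call. Genes past the test numbered 7451 in sh-Pfkp over sh-ctrl, 7141 in sh-Lin41 over sh-ctrl and 7255 in sh-Pfkp over sh-Lin41. With a 2-fold minimum they were 857, 560 and 591. Leaving out 1 library gave 6876 to 7550, 6447 to 7176 and 6716 to 7299. With the replicate block they were 7435, 7109 and 7196, and among the members the block ended only the call of Srf in sh-Pfkp over sh-Lin41. In sh-Pfkp over sh-ctrl, 49.9% of the calls were higher, but 40.3% with library totals alone and 39.7% on either FPKM scale; in sh-Pfkp over sh-Lin41 the share was 49.7%, and 40.1% with library totals alone. The call of Fosb in sh-Pfkp over sh-ctrl was lost with DESeq2, with no filter, on the FPKM scales and without sh-Pfkp replicates 2 or 3 or sh-ctrl replicate 3, and that of Jun with a 2-fold minimum, with DESeq2 and without sh-Pfkp replicates 1 or 3 or sh-ctrl replicates 1 or 2. That of Junb was lost with a 2-fold minimum and with DESeq2 in both comparisons with control, without sh-ctrl replicate 2 in both, and without sh-Pfkp replicate 3 or sh-Lin41 replicate 3 in its own. Of 1920 counts over gene lists, 1762 stayed within 1.5 times. The cause of these moves was not tested. Counts of Egr2, Egr3 and Fosb are too low for a change under about the width of their intervals to be seen.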
